A study of Danio rerio with 49 samples.

Results

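The passage from the 4-cell stage to the shield stage was measured in zebrafish embryos that lack the RNA ligase gene rlig1, as 3 shield libraries against 4 libraries of the 4-cell stage. These 7 libraries, of 49 in the series, were all those labelled MZrlig1 at these 2 stages. The label denotes a maternal-zygotic mutant, an embryo to which neither the egg nor its own genome supplies the intact gene. Each library was poly(A)-enriched RNA of a pool of 10 whole embryos, raised in the dark at 28 °C after natural spawning and staged by morphology. The kind of mutation and the number of parents behind each pool are not given in the sources used here. The same 2 stages of wildtype embryos (4 and 3 libraries) were used for comparison. So were 2 MZrlig1 and 2 wildtype libraries of the sphere stage, which lies between.

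At the 4-cell stage the embryo transcribes next to nothing and lives on RNA that the mother loaded into the egg. This maternal RNA is removed in waves, first by factors the mother supplied and later by products of the embryo, among them the microRNA family miR-430. The embryo's genome is activated in the blastula, around and before sphere, by maternal transcription factors of the Pou5f3, Sox19b and Nanog group, and by shield, the onset of gastrulation, dorsal, ventral and germ layer programmes are running. Rlig1 is an enzyme that joins RNA ends. The comparison asks which transcripts are lost and which are gained across this transition in embryos without it.

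The targeted gene, listed as RLIG1 (ENSDARG00000045785), was read first as a check of the labels. It had 2 counts in MZrlig1 4-cell library c and 0 in the other 6 libraries of the comparison, too few to be tested. Wildtype libraries held 68.2, 63.9, 64.8 and 43.3 CPM (counts scaled to the library total) at 4-cell and 2.62, 1.60 and 1.46 CPM at shield (log2 fold change -4.97 ± 0.27, adjusted p = 2.5e-08, edgeR). The transcript is thus a maternal one that is low by shield in wildtype. The poly(A) reads say nothing of ligase activity.

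All CPM were scaled by the trimmed mean of M values (TMM) over the 18 libraries of 4-cell, sphere and shield in both genotypes. Values per library are given in the order b, c, d, f for 4-cell, e, f for sphere and a, b, c for shield. Total counts of the 7 libraries lay between 14277607 and 17247414. Between 16453 and 17265 genes had a count at 4-cell and between 20068 and 20963 at shield. Spearman correlations between replicates, across genes, were 0.969 to 0.983 at 4-cell and 0.952 to 0.968 at shield.

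Of the 7 libraries, 3 stood apart within their stage in ways that touch the results. 4-cell library d held a trace of zygotic RNA. Over 363 genes chosen in wildtype alone, as at least 20 CPM at shield and under 0.2% of that at 4-cell, its summed level was 0.983% of the MZrlig1 shield mean, against 0.0503%, 0.0459% and 0.144% in libraries b, c and f. Wildtype 4-cell library f had counts for 24 of 29 early zygotic genes, against 14, 14 and 13 in a, b and c. Its summed CPM over these genes was the lowest, at 350 against 522, 616 and 521. This library entered the mean 4-cell level by which the 363 genes were chosen. In MZrlig1, shield library c held the most maternal RNA. Over 35 genes chosen in wildtype as at least 20 CPM at 4-cell and under 1% of that at shield, the sum in shield libraries a, b and c was 0.264%, 0.887% and 1.74% of the 4-cell mean. Shield library a held the most RNA of later tissues. The 13 later stage markers found in the tables (muscle, globin, lens, liver, pancreas and neural genes) summed to 201.1 CPM there, 23.0 and 39.5 CPM in b and c, and 0.841 to 7.66 CPM at 4-cell. Most of that sum was muscle RNA, with actc1b at 118, 10.9 and 16.9 CPM and ckma at 20.9, 2.22 and 5.13 CPM, while mbpa and fabp10a were at 0 in all 3. The part of these traces in the results below was not tested, except where values without a library are given.

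Nearly 3 of every 4 genes changed between 4-cell and shield in the mutant. Of 15304 genes with enough counts, 11208 (73.2%) passed an adjusted p of 0.05 in edgeR's quasi-likelihood test. At shield 6222 (40.7%) were higher and 4986 (32.6%) lower. A gene near 0 at 4-cell had enough counts to be tested only through its shield libraries. List members that stayed low at both stages were therefore not tested, which raises the share of tested members that were higher. Against a minimum change of 2-fold, tested with glmTreat, 8222 genes (53.7%) passed, 4815 (31.5%) higher and 3407 (22.3%) lower. Of the genes that were higher, 2250 were under 0.5 CPM on average at 4-cell, 1520 lay between 0.5 and 5 CPM, and 2452 were already at 5 CPM or more, so 2452 of the 6222 rises started from a supply present at 4-cell. Of those that were lower, 526 ended under 0.5 CPM at shield and 2831 still stood at 5 CPM or more. The values are relative to the library total, and the median fold change of all genes depends on the scaling. Its log2 was 0.20 with TMM, 0.33 with DESeq2's size factors and -0.19 with total counts, a shift of 0.39, within which a direction depends on the scaling. With total counts the split was 5358 higher and 5920 lower. In whole embryos, fewer cells of a type and less RNA per cell cannot be told apart. With poly(A) enrichment, neither can a loss of the RNA and a loss of its tail. The same holds for a gain of RNA and a gain of tail. Without 4-cell library d and shield library c together, an alternative chosen after seeing the data, 10687 genes passed. Among the genes named below as higher or lower between 4-cell and shield, npm2b alone had overlapping values at the 2 stages.

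The most abundant RNAs of the 2 stages differed. By CPM the first 5 at 4-cell were the mitochondrial MT-CO1 (11222 ± 3707, SD, n = 4), cldnd, CCNB1, RRM2 (ENSDARG00000020711, 1 of 2 entries), which makes deoxynucleotides, and h2af1al. At shield they were eef1a1l1, an elongation factor of translation (23316 ± 3641, SD, n = 3), the chromatin protein gene hmga1a, MT-CO1, cirbpb, of a cold-inducible RNA-binding protein, and hnrnpa0l, of an RNA-packaging protein. eef1a1l1 rose from 3530.3, 3616, 3691 and 3094 to 27158, 22873 and 19917 CPM (log2 fold change 2.85 ± 0.15, adjusted p = 3.9e-07). hmga1a rose from 2210.4, 2378, 2601 and 2484 to 17517, 15648 and 13009 CPM (log2 fold change 2.78 ± 0.15, adjusted p = 3.8e-07). Both had a large supply at 4-cell. Per length, eef1a1l1 led at shield among these genes with 13108 ± 1672 FPKM (fragments scaled for gene length and depth, SD, n = 3). MT-CO1 did not pass (log2 fold change 0.35 ± 0.23, adjusted p = 0.20).

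**Figure D1:**
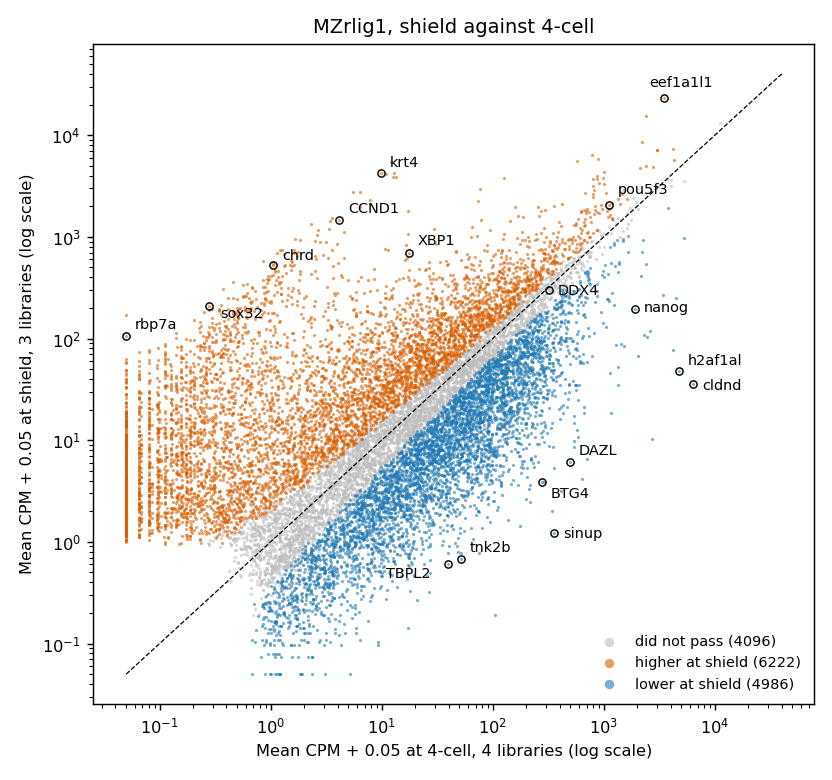
Mean expression per gene at shield against 4-cell in MZrlig1, in CPM plus 0.05 on log axes, with 1 point for each of the 15304 genes tested. Orange points were higher and blue points lower at shield at an adjusted p under 0.05, grey points did not pass, and labelled genes include the largest falls and rises of the text; the 2250 rising genes under 0.5 CPM at 4-cell form the column at the left.

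The abundant RNAs that fell furthest included known products of the oocyte. The rule of naming took the 10 largest falls among genes with at least 50 CPM at 4-cell, no overlap between stages and a gene symbol: sinup, cldng, cldnd, slbp2, sh2d5, fbxo43, kpna7, h2af1al, DAZL and tnk2b. Measured per length, h2af1al, a histone H2A variant of the egg, and cldnd, a claudin of cell junctions, stood at 17251 ± 9219 and 12899 ± 5853 FPKM at 4-cell (SD, n = 4), above the other RNAs that led by CPM. The 4-cell libraries held cldnd at 10660.2, 7237, 4298 and 3455 CPM and the shield libraries at 10.3, 64.8 and 31.4 CPM (log2 fold change -7.41 ± 0.89, adjusted p = 0.00023). Both claudins among the 10 were thus above 1600 CPM in every 4-cell library and below 70 CPM in every shield library. cldng went from 4284, 3044, 2035 and 1612 CPM to 4.55, 14.8 and 11.4 CPM (log2 fold change -7.97 ± 0.61, adjusted p = 6.4e-06). The histone variant h2af1al went from 8295, 5484, 3016 and 2113 CPM to 7.90, 30.8 and 106 CPM (log2 fold change -6.53 ± 1.17, adjusted p = 0.0022). Its shield value was set by library c, and without that library the log2 fold change was -7.83. The 4-cell libraries differed here too, since b and c held more than d and f of all 3 of these RNAs.

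Other named falls differed in how far their libraries spread. fbxo43, which holds the egg in meiosis by blocking the anaphase-promoting complex, was at 1321, 1374, 783 and 606 CPM and then at 3.78, 12.4 and 8.78 CPM (log2 fold change -6.85 ± 0.54, adjusted p = 4.7e-06). kpna7, an importin of oocytes that carries proteins into the nucleus, fell from a mean of 699 ± 253 to 6.51 ± 3.75 CPM (SD, n = 4 and 3; log2 fold change -6.65 ± 0.59, adjusted p = 1.0e-05). sh2d5, an adaptor protein, was the most even of the group at 4-cell, at 449.7, 408, 388 and 404 CPM, and stood at 2.58, 2.94 and 3.79 CPM at shield (log2 fold change -6.95 ± 0.24, adjusted p = 2.6e-07). sinup was at 1.20, 1.16 and 1.19 CPM in the 3 shield libraries after 526, 387, 282 and 219.6 CPM at 4-cell (log2 fold change -8.11 ± 0.42, adjusted p = 3.6e-07). The kinase gene tnk2b was at 0.515, 0.178 and 1.19 CPM after 58.96, 55.2, 47.9 and 43.6 CPM (log2 fold change -6.18 ± 0.50, adjusted p = 2.7e-06). For these 10 genes no shield library reached a 4-cell library, as the rule requires.

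**Figure D2:**
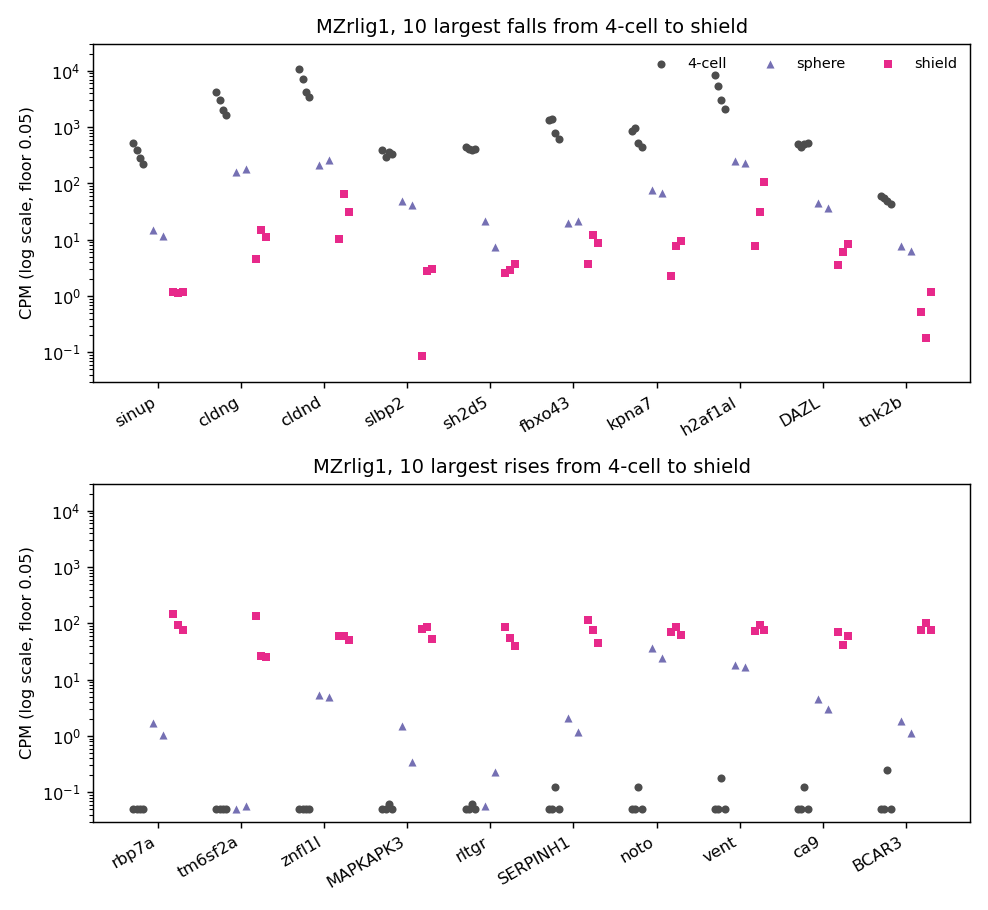
CPM in each MZrlig1 library of the 10 largest falls (upper panel) and 10 largest rises (lower panel), on a log axis with values under 0.05 CPM drawn at 0.05. Circles are 4-cell, triangles sphere and squares shield libraries; the falling genes are already well below their 4-cell level at sphere, and the rising genes lie at or near 0 at 4-cell except for a trace in library d.

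Over the 26 egg transcripts found, all tested, 21 were lower, 1 was higher and 4 did not pass, with a median log2 fold change of -3.91 against 0.20 over all genes. BTG4, which brings the CCR4-NOT deadenylase to maternal RNAs, went from 293, 251, 307 and 256 CPM to 1.55, 3.29 and 6.67 CPM (log2 fold change -6.06 ± 0.45, adjusted p = 1.6e-06). MOS, the kinase behind meiotic arrest, went from 74.6, 61.4, 33.3 and 35.1 CPM to 0.515, 1.87 and 1.12 CPM (log2 fold change -5.35 ± 0.52, adjusted p = 8.2e-06). slbp2, an oocyte protein that binds the stem-loop of histone RNAs, had 395, 294, 358 and 328 CPM at 4-cell and 0.0859, 2.76 and 3.02 CPM at shield (log2 fold change -7.34 ± 0.75, adjusted p = 3.7e-05). In each of these 3 the highest shield library was far below the lowest 4-cell library. Not every egg RNA went down: npm2b, a nucleoplasmin that packs egg chromatin, passed as higher (log2 fold change 0.92 ± 0.38, adjusted p = 0.047) with overlapping libraries. It did not pass with total counts, or without any 1 of 4-cell libraries c, d and f and shield libraries b and c. EIF4E1B, an oocyte cap-binding protein, stood at 70.7, 54.3, 39.6 and 34.6 CPM and then at 55.998, 91.8 and 61.02 CPM without passing (adjusted p = 0.10), though it passed as higher without 4-cell library b and in DESeq2.

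Most RNAs of the germ plasm, the maternal material that makes primordial germ cells, fell in the whole embryo. Of 19 members found and tested, 15 were lower, 2 higher and 2 did not pass (median log2 fold change -2.50), against 32.6% lower over all genes. DAZL, an RNA-binding protein of germ cells, was at 498, 440.2, 496 and 529.9 CPM at 4-cell, at 45.1 and 36.7 CPM at sphere and at 3.61, 6.05 and 8.57 CPM at shield (log2 fold change -6.23 ± 0.32, adjusted p = 3.6e-07). buc, whose protein gathers germ plasm in the oocyte, fell from 645, 603, 478 and 487 CPM to 2.92, 8.72 and 93.1 CPM (log2 fold change -3.89 ± 1.21, adjusted p = 0.024). Shield library c held more than 10 times the buc RNA of the other shield libraries, and without it the log2 fold change was -6.47. The call for buc was lost without 4-cell library f or shield library b. DND1, which shields germ cell RNAs from miR-430, fell from 200.5, 143, 121 and 125 to 9.88, 13.3 and 12.3 CPM (log2 fold change -3.54 ± 0.27, adjusted p = 1.8e-06). NANOS3, a repressor of translation in germ cells, fell from 78.8, 57.5, 85.4 and 76.2 to 6.96, 13.4 and 9.41 CPM (log2 fold change -2.80 ± 0.29, adjusted p = 1.2e-05). The granule proteins of the Tudor family did not move alike. tdrd7a, TDRD1, TDRD6 and tdrd5 were lower, with log2 fold changes of -3.53 ± 0.31, -2.50 ± 0.46, -1.98 ± 0.36 and -1.75 ± 0.33. TDRD9 was higher, at 17.2, 19.5, 22.7 and 21.7 CPM and then 54.5, 60.2 and 88.9 CPM (log2 fold change 1.84 ± 0.24, adjusted p = 6.2e-05). DDX4, the vasa helicase, did not pass, with overlapping values of 352, 319, 297 and 315 CPM and 245, 329 and 327 CPM (log2 fold change 0.01 ± 0.17, adjusted p = 0.98).

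Genes of RNA storage and decay changed in both directions. Among 45 members found and tested, 18 were higher, 18 lower and 9 did not pass, shares close to those over all genes. With total counts 13 were higher and 22 lower. BTG1, which recruits CCR4-NOT, rose from 11.5, 8.43, 10.7 and 12.4 to 253, 241 and 259 CPM (log2 fold change 4.65 ± 0.20, adjusted p = 3.0e-07) while its oocyte relative BTG4 went down. Of the deadenylase itself, the catalytic subunit CNOT7 fell from 79.003, 74.5, 69.1 and 72.8 to 3.52, 1.96 and 2.67 CPM (log2 fold change -4.66 ± 0.30, adjusted p = 6.9e-07). The scaffold-binding subunit CNOT3 rose from 13.6, 11.1, 25.5 and 21.8 to 183, 132 and 149.5 CPM (log2 fold change 3.21 ± 0.30, adjusted p = 6.5e-06). Other subunits of the complex, named here after their values were seen, divided as well. The catalytic subunits CNOT8 (log2 fold change -2.51 ± 0.21, adjusted p = 3.5e-06) and cnot6b (log2 fold change -2.94 ± 0.27, adjusted p = 5.8e-06) were lower. CNOT6, also catalytic (log2 fold change 1.60 ± 0.19, adjusted p = 3.2e-05) and the scaffold CNOT1 (log2 fold change 1.85 ± 0.25, adjusted p = 7.4e-05) were higher. CNOT8, at 643 ± 85.02 CPM (SD, n = 4), was the most abundant of these catalytic subunits by CPM at 4-cell, and CNOT6, at 510.1 ± 15.5 CPM (SD, n = 3), at shield. The order per length was the same, with CNOT8 at 456 ± 37.9 FPKM at 4-cell and CNOT6 at 105 ± 7.50 FPKM at shield. The reader of methylated RNA YTHDF1 (log2 fold change 2.87 ± 0.21, adjusted p = 1.5e-06) was higher. The repressors SAMD4A (log2 fold change -3.45 ± 0.43, adjusted p = 4.2e-05) and DDX6 (log2 fold change -3.03 ± 0.28, adjusted p = 5.5e-06) and the decapping activator LSM1 (log2 fold change -3.11 ± 0.47, adjusted p = 0.00016) were lower.

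Among the factors that open the zygotic genome some were lower and others higher at shield. Of 20 members found and tested, 12 were higher, 6 lower and 2 did not pass, against 40.7% higher and 32.6% lower over all genes. nanog was at 1543, 2321, 1762 and 1973 CPM at 4-cell, still at 1232 and 1225 CPM at sphere, and at 80.8, 165 and 342 CPM at shield (log2 fold change -3.19 ± 0.45, adjusted p = 0.00019). sox19b, the maternal SoxB1 factor, fell from 405, 292, 321 and 383 to 51.7, 45.6 and 76.1 CPM (log2 fold change -2.50 ± 0.23, adjusted p = 6.1e-06). pou5f3 behaved otherwise: 1068, 1208, 1061 and 1133 CPM at 4-cell and 1809, 2186 and 2197 CPM at shield, with every shield library above every 4-cell library (log2 fold change 0.99 ± 0.14, adjusted p = 0.00012). The SoxB1 relatives known to be made by the embryo were higher. sox19a stood at 0, 0, 3.85 and 0.540 CPM and then 675, 757 and 633 CPM (log2 fold change 9.37 ± 1.38, adjusted p = 0.00088, and 11.82 on the log2 scale without 4-cell library d). At shield SOX3 was at 340.0, 562 and 403 CPM and SOX2 at 141, 176 and 155 CPM, all above every 4-cell library. TBPL2, the TATA-binding relative of oocytes, went from 42.1, 36.2, 38.99 and 39.99 to 0.172, 0.178 and 1.33 CPM (log2 fold change -5.93 ± 0.60, adjusted p = 1.1e-05). The general factor TBP went from 679.9, 513, 644 and 608 to 39.7, 47.3 and 92.3 CPM (log2 fold change -3.25 ± 0.30, adjusted p = 5.8e-06). Both members of that pair were thus lower. The maintenance DNA methyltransferase DNMT1 went from 2021, 3064, 2045 and 2119 to 91.04, 105 and 128 CPM (log2 fold change -4.32 ± 0.24, adjusted p = 4.2e-07) and was already at 146 and 110.5 CPM at sphere. The chromatin reader BRD2 rose from 23.99, 23.8, 26.8 and 26.6 to 257, 237 and 269 CPM (log2 fold change 3.44 ± 0.17, adjusted p = 3.6e-07).

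In 5 of 9 listed pairs of an egg gene and a relative used later, the egg gene was lower and the relative higher. Of the 18 members 8 were higher, 9 lower and 1 did not pass, and 40.7% of all genes were higher and 32.6% lower. WEE2, the oocyte kinase that inhibits CDK1, fell from 1635, 1553, 1267 and 1227 to 26.5, 93.6 and 142 CPM (log2 fold change -3.93 ± 0.53, adjusted p = 0.00016). WEE1 rose from 29.05, 24.3, 34.3 and 28.6 to 379.9, 413 and 364 CPM (log2 fold change 3.83 ± 0.18, adjusted p = 3.0e-07). slbp rose from 348, 235, 259 and 237 to 681, 991 and 624 CPM (log2 fold change 1.61 ± 0.21, adjusted p = 6.8e-05) against the fall of slbp2. The maternal linker histone h1m fell from 7584, 3697, 3661 and 3002 to 88.9, 353 and 315 CPM (log2 fold change -4.06 ± 0.58, adjusted p = 0.00035). In the cyclin A pair CCNA1 (log2 fold change -4.37 ± 0.90, adjusted p = 0.0039) and CCNA2 (log2 fold change -1.18 ± 0.23, adjusted p = 0.00074) were both lower. For CCNA1 the shield libraries spread over 16.6, 94.2 and 244 CPM. In the poly(A)-binding pair, PABPC1L of the oocyte was lower (log2 fold change -1.35 ± 0.40, adjusted p = 0.011) and pabpc1a higher (log2 fold change 1.47 ± 0.30, adjusted p = 0.0014).

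**Figure D3:**
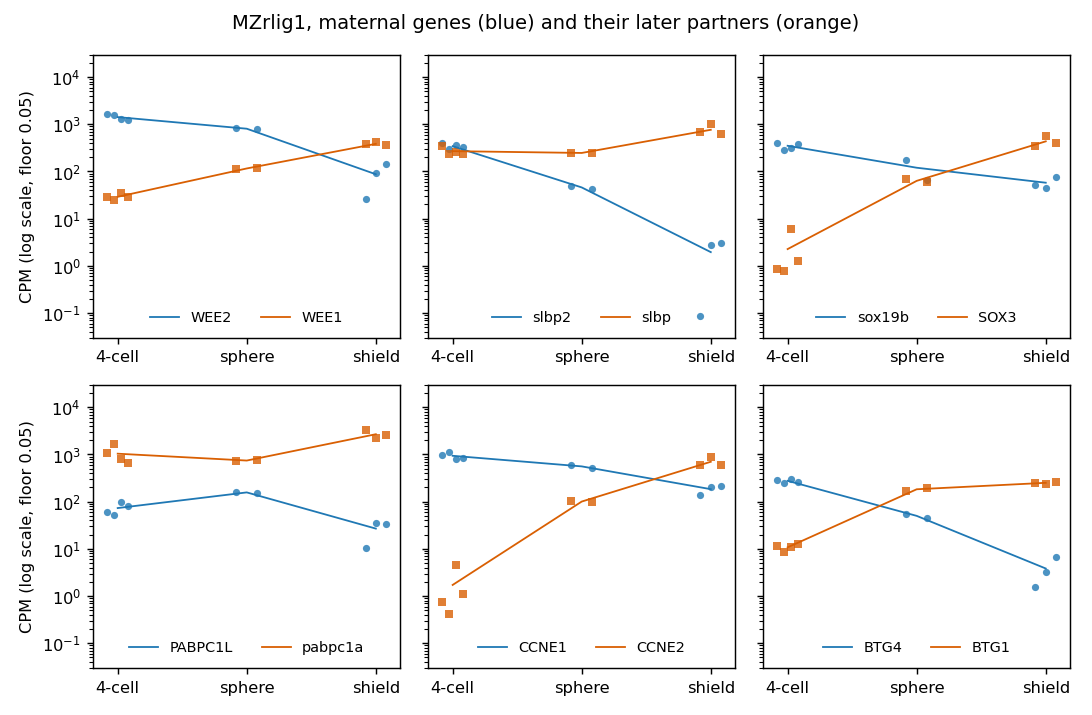
CPM in each MZrlig1 library at 4-cell, sphere and shield for 6 maternal and embryonic partners (WEE2 and WEE1, slbp2 and slbp, sox19b and SOX3, PABPC1L and pabpc1a, CCNE1 and CCNE2, BTG4 and BTG1), on log axes with values under 0.05 CPM drawn at 0.05 and lines through the means. In each panel the maternal partner ends below its 4-cell level and the other above it. The 6 pairs are a selection, and pairs without this pattern, such as CCNA1 and CCNA2, are not drawn.

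Cell cycle genes also divided. Of 43 members, 19 were higher, 16 lower and 8 did not pass, shares close to those over all genes. The mitotic cyclin CCNB1, the third most abundant RNA by CPM at 4-cell, fell from 6711, 6537, 4007 and 3722 to 845, 1053 and 1048 CPM (log2 fold change -2.32 ± 0.25, adjusted p = 1.7e-05). CCNB2 fell from 4345, 4035, 2776 and 2523 to 204, 243 and 358 CPM (log2 fold change -3.58 ± 0.29, adjusted p = 2.5e-06). The G1 cyclin CCND1 rose from 1.67, 0.627, 11.7 and 2.34 to 1328, 1679 and 1342 CPM (log2 fold change 8.57 ± 1.07, adjusted p = 0.00033, and 9.91 without 4-cell library d). CCNE2, a cyclin of S phase entry, reached 609, 884 and 612 CPM (log2 fold change 8.76 ± 0.82, adjusted p = 3.6e-05). The maternal CCNE1, named after its values were seen, fell from 967, 1115, 812 and 860.4 to 136, 205 and 212 CPM (log2 fold change -2.25 ± 0.22, adjusted p = 7.2e-06). The replicative helicase subunit MCM3 went from 1.30, 0.697, 8.92 and 3.12 to 747, 719 and 755 CPM (log2 fold change 7.82 ± 0.86, adjusted p = 0.00011). The checkpoint kinase chek2 was lower (log2 fold change -3.44 ± 0.37, adjusted p = 1.6e-05).

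The RNAs with the largest rises had between 0 and 4 counts in the 4-cell libraries together. The 10 named by the rule were rbp7a, tm6sf2a, znfl1l, MAPKAPK3, rltgr, SERPINH1 (ENSDARG00000019949, 1 of 2 entries with this name), noto, vent, ca9 and BCAR3. rbp7a, a retinol-binding protein, had 0 counts in the 4 libraries of the 4-cell stage and 149, 94.7 and 75.5 CPM at shield, at least 2213-fold higher, where the bound sets the 4-cell group at 3 counts. On the same bound znfl1l, a zinc finger gene, was at least 1209-fold higher, with 60.8, 60.2 and 51.5 CPM, and tm6sf2a, a lipid transport gene, at least 1285-fold. In tm6sf2a the level rests on shield library a, with 137, 26.6 and 25.4 CPM. noto, the homeobox gene of the notochord, had 2 counts at 4-cell, both in library d, and 69.5, 88.1 and 61.2 CPM at shield, a ratio of 2286 (95% interval 632 to 18885) that covers counting error only (log2 fold change 10.92 ± 0.57, adjusted p = 3.6e-07). vent, a homeobox repressor of dorsal fate, had 3 counts, also in d, and 71.97, 93.4 and 75.1 CPM, a ratio of 1688 (95% interval 577 to 8191) on the same terms (log2 fold change 10.59 ± 0.60, adjusted p = 4.3e-07). MAPKAPK3, a kinase under p38, SERPINH1, a chaperone of collagen, ca9, a carbonic anhydrase, BCAR3, an adaptor protein, and rltgr had 1 to 4 counts at 4-cell, every one in library d, and shield values from 39.0 CPM (rltgr, library c) to 113 CPM (SERPINH1, library a).

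Of 29 early zygotic genes, 28 were higher and 1 lower, with a median log2 fold change of 8.29 that became 10.11 without 4-cell library d, or 9.85 with the 7 members that then had no count set at their bound. The 28 higher members compare with 40.7% higher over all genes. sox32, which starts endoderm, went from 0, 0, 0.917 and 0 to 264, 199 and 168 CPM (log2 fold change 9.86 ± 0.96, adjusted p = 3.4e-05). foxd5, a forkhead factor of the neural plate, reached 201, 200.2 and 148 CPM and aplnra, a receptor that guides mesendoderm cells, 157, 164 and 117 CPM, with only library d above 0 at 4-cell for both. The ligand of that receptor, apela, reached 198, 247 and 154 CPM (log2 fold change 8.76 ± 0.99, adjusted p = 0.00010).

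Nodal ligands signal through Smad2 and set up mesoderm, endoderm and the dorsal organizer. Most genes of this list were higher at shield, and 2 with a maternal supply were lower. Of 23 members found, 21 were tested. Of these 18 were higher, 2 lower and 1 did not pass, against 40.7% higher and 32.6% lower over all genes. chrd, the BMP antagonist of the organizer, went from 0, 0.0697, 3.79 and 0.180 to 597, 488 and 485 CPM (log2 fold change 9.09 ± 1.38, adjusted p = 0.00098, and 12.51 without 4-cell library d). FOXA2, a forkhead factor of axial mesoderm and endoderm, had no count at 4-cell and 57.2, 34.3 and 28.3 CPM at shield, at least 829.9-fold higher. The Nodal ligands ndr1 and ndr2 were low at shield, at 3.61, 15.8 and 7.51 and 15.4, 23.2 and 19.3 CPM, though both were higher than at 4-cell (log2 fold change 3.92 ± 0.62, adjusted p = 0.00020 for ndr1 and log2 fold change 8.18 ± 0.63, adjusted p = 1.9e-06 for ndr2). Their antagonists lft1 and lft2 stood at 34.6, 44.2 and 28.7 and 24.6, 35.9 and 19.03 CPM. The maternal coligand gdf3 fell from 824, 865, 596 and 663 to 62.4, 122 and 134 CPM (log2 fold change -2.70 ± 0.29, adjusted p = 1.4e-05). The transducer SMAD2 fell from 278, 281, 311 and 281 to 38.5, 29.5 and 47.5 CPM (log2 fold change -2.80 ± 0.21, adjusted p = 1.9e-06). dharma, an early dorsal gene, was between 0.601 and 2.40 CPM at shield and hhex at or under 1.03 CPM, both too low to be tested.

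BMP ligands pattern the ventral side through Smad5. Of 22 members of this list 18 were higher, 3 lower and 1 did not pass, where all genes gave 40.7% higher and 32.6% lower. szl, a protease inhibitor gene, reached 126, 96.2 and 65.7 CPM (log2 fold change 8.83 ± 0.95, adjusted p = 4.6e-05). BMPER, with no count at 4-cell, reached 45.6, 19.9 and 19.1 CPM, at least 586-fold higher. eve1, a homeobox gene of the ventral margin, went from 0, 0, 1.77 and 0 to 248, 280.3 and 211 CPM (log2 fold change 9.17 ± 1.20, adjusted p = 0.00032). The inhibitory transducer SMAD7 went from 0.0617, 0, 0.0611 and 0 to 40.7, 48.4 and 24.6 CPM, where the 4-cell values are 2 counts and the ratio was 1172 (95% interval 324 to 9688). The maternal ligand gdf6a (log2 fold change -4.41 ± 0.58, adjusted p = 6.4e-05), the modulator TWSG1 (log2 fold change -1.33 ± 0.38, adjusted p = 0.0084) and the transducer SMAD5 (log2 fold change -1.23 ± 0.15, adjusted p = 4.6e-05) were lower, SMAD5 from 1054, 1078, 921 and 999.6 to 373, 391 and 446 CPM.

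In the Wnt list 23 of 25 members found were tested. Of these 17 were higher, none was lower at this threshold and 6 did not pass (2 were lower with total counts). Over all genes 40.7% were higher and 32.6% lower. The caudal gene cdx4 went from 0.0617, 0, 1.41 and 0 to 381, 213 and 157 CPM (log2 fold change 9.46 ± 1.11, adjusted p = 0.00015). wnt11f2, the ligand of convergence movements, went from 0.123, 0.0697, 2.08 and 0.240 to 225, 478 and 253 CPM (log2 fold change 9.05 ± 0.95, adjusted p = 6.9e-05). The target genes sp5l and SP5 reached 709.5, 477 and 464 and 85.6, 84.9 and 76.3 CPM. WNT8A (ENSDARG00000078507, 1 of 2 entries), the ligand that patterns the margin, did not pass (log2 fold change 2.65 ± 1.57, adjusted p = 0.17). In 1 of 15 alternatives it passed as higher, and over them its log2 fold change ranged from 1.70 to 4.37. At 4-cell it stood at 16.7, 5.09, 0 and 0 CPM, so libraries b and c held a supply that d and f lacked. For FGF, 18 of 20 members found were tested. Of these 15 were higher, again beside 40.7% of all genes, 1 was lower and 2 did not pass. The receptor fgfr4 went from 0, 0, 6.17 and 0.540 to 703, 627 and 629.5 CPM (log2 fold change 8.69 ± 1.54, adjusted p = 0.0022). The feedback phosphatase DUSP6 went from 0, 0, 2.02 and 0.0600 to 302, 383 and 320.1 CPM (log2 fold change 9.39 ± 1.20, adjusted p = 0.00032). The ligand FGF3 went from no count to 7.90, 24.1 and 18.9 CPM, at least 361-fold. A pair of related targets parted. etv5b rose from 47.4, 59.01, 70.9 and 63.8 to 619.5, 595 and 593 CPM (log2 fold change 3.42 ± 0.18, adjusted p = 3.9e-07). etv5a fell from 414, 389, 314 and 283 to 79.5, 60.8 and 108 CPM (log2 fold change -1.98 ± 0.25, adjusted p = 4.3e-05).

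Of 24 genes of mesoderm and endoderm found, 19 were tested. Of these 18 were higher and 1 did not pass (median log2 fold change 8.23), against 40.7% higher over all genes. Without 4-cell library d the median was 10.58, or 9.27 with the 6 members that then had no count at their bound. TBXT, 1 of the brachyury genes, had no count at 4-cell and 29.6, 13.8 and 26.8 CPM at shield, at least 503-fold higher. Its relative tbxta, named after its values were seen, had 0, 0, 6.23 and 0.0600 CPM and then 643, 837 and 723 CPM (log2 fold change 8.95 ± 1.71, adjusted p = 0.0030). snai1b, a repressor active in migrating mesoderm, reached 289, 424 and 326 CPM (log2 fold change 9.32 ± 1.08, adjusted p = 0.00015). snai1a rose from a maternal 199.8, 245, 168 and 178 to 423, 261 and 384 CPM (log2 fold change 0.95 ± 0.22, adjusted p = 0.0027). The endoderm marker SOX17 reached 34.01, 19.3 and 16.3 CPM (log2 fold change 8.17 ± 0.80, adjusted p = 8.4e-06). gata4, MYOD1, HAND2 and HGF, genes of organs not yet formed, were at or below 1.63 CPM in all shield libraries and were not tested. Of the genes of gastrulation movements, 17 of 18 were higher, against the same 40.7%. The exception was cdh1, the E-cadherin that holds the blastoderm together, at 495, 699, 373 and 502 CPM and then 321, 389 and 335 CPM (log2 fold change -0.47 ± 0.22, adjusted p = 0.075, though it passed as lower without 4-cell library d or with total counts). CDH2, N-cadherin, rose from 4.81, 5.23, 13.9 and 10.1 to 561, 260.1 and 328 CPM (log2 fold change 5.60 ± 0.45, adjusted p = 3.2e-06). The planar polarity gene VANGL2 rose from 307, 296, 361 and 419.7 to 1103, 1067 and 1135 CPM (log2 fold change 1.78 ± 0.16, adjusted p = 5.2e-06).

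The enveloping layer is the first epithelium of the embryo, and the yolk syncytial layer forms below the blastoderm. Of 29 members found, 27 were tested. Of these 24 were higher and 3 lower, against 40.7% higher and 32.6% lower over all genes. The keratin RNAs were at 4775, 4830.5 and 3277 CPM (krt4), 3313, 2864 and 2188 CPM (krt5) and 1575, 1444 and 1037 CPM (krt92) at shield, and in 4-cell library d at 32.0, 18.3 and 8.43 CPM against at most 3.45, 2.10 and 0.360 CPM in the others. Their log2 fold changes were 8.88 ± 1.39, 9.09 ± 1.46 and 9.32 ± 1.64, and without library d 10.84, 11.20 and 12.79. cldne, the claudin of the enveloping layer, reached 569.6, 734 and 451 CPM (log2 fold change 9.59 ± 1.33, adjusted p = 0.00062). For krt17 (174, 89.5 and 48.5 CPM) and cyt1 (321, 201 and 181 CPM) shield library a was the highest, the library that also held the most later stage markers. HNF4A, a nuclear receptor of the yolk syncytial layer, reached 206, 134 and 169 CPM (log2 fold change 8.73 ± 1.16, adjusted p = 0.00029) and the homeobox gene mxtx1 63.9, 104 and 119 CPM (log2 fold change 8.01 ± 0.99, adjusted p = 0.00013). epcam and cldn7b, adhesion genes with a maternal supply, were lower (log2 fold change -1.57 ± 0.25, adjusted p = 0.00024 for epcam and log2 fold change -1.59 ± 0.22, adjusted p = 9.1e-05 for cldn7b).

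**Figure D4:**
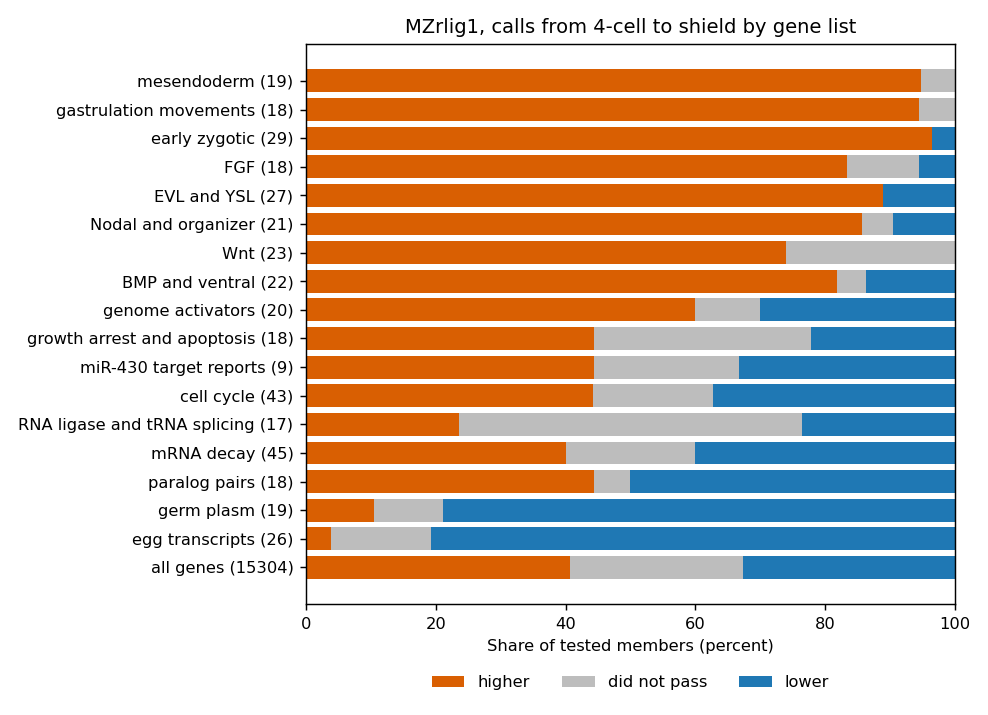
Share of each list's tested members that were higher (orange), lower (blue) or did not pass (grey) at shield against 4-cell in MZrlig1. The number tested stands beside each name, and all 15304 genes are in the bottom bar. The list of later stage markers, with 4 of 13 found tested and all 4 higher, is not drawn. Zygotic and patterning lists are mostly higher, from 17 of 23 members for Wnt to 28 of 29 early zygotic genes. Egg and germ plasm lists are mostly lower, and the decay and cell cycle lists are divided like all genes. Some lists share genes, so the bars are not separate counts.

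RNA ligation and tRNA splicing genes were divided: of 17 tested members 4 were higher, 4 lower and 9 did not pass. The share that passed was smaller than the 73.2% of all genes, a difference that was not tested. With DESeq2's size factors 7 were higher and 4 lower. RTCB, the catalytic subunit of the tRNA ligase, was low throughout, at 0.987, 2.30, 2.14 and 0.720 CPM and then 4.21, 4.54 and 2.32 CPM (log2 fold change 1.36 ± 0.51, adjusted p = 0.034). This call was lost with total counts and without any 1 of 4-cell libraries b and f and shield libraries a and b. Its partner DDX1, a helicase, fell from 44.1, 51.5, 43.1 and 39.8 to 3.18, 1.96 and 8.78 CPM (log2 fold change -3.16 ± 0.48, adjusted p = 0.00015). FAM98A, of the same complex, fell from 42.2, 83.6, 86.2 and 90.8 to 12.1, 11.9 and 20.996 CPM (log2 fold change -2.23 ± 0.34, adjusted p = 0.00017), while its relative FAM98B rose (log2 fold change 1.59 ± 0.31, adjusted p = 0.00093). RTCA, the RNA cyclase, rose from 117, 90.8, 119.5 and 127 to 369.6, 309 and 275 CPM (log2 fold change 1.59 ± 0.19, adjusted p = 2.7e-05). XBP1, whose RNA the tRNA ligase joins in the unfolded protein response, rose from 27.1, 15.5, 16.6 and 10.5 to 688, 846 and 561 CPM (log2 fold change 5.42 ± 0.33, adjusted p = 5.8e-07) and was already at 171 and 176 CPM at sphere. cnp, a phosphodiesterase that acts on cyclic phosphate ends, was lower (log2 fold change -1.44 ± 0.28, adjusted p = 0.00075), as was ANGEL2, a phosphatase of the same ends (log2 fold change -0.78 ± 0.18, adjusted p = 0.0027). The 4 subunits of the tRNA endonuclease in the list did not pass. None of the 17 passed the test of a different change in wildtype described below, which only 0.600% of all genes passed.

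Of 9 reported targets of miR-430 found in the tables, 3 were lower, 4 higher and 2 did not pass, shares close to the 32.6% lower and 40.7% higher of all genes. The lower ones were the germ plasm RNAs DAZL, tdrd7a and NANOS3. The higher ones were the Nodal pathway genes ndr1, lft1 and lft2 and the chemokine gene CXCL12, the last going from 0.555, 0.0697, 0.856 and 0.360 to 48.4, 42.3 and 31.6 CPM (log2 fold change 6.53 ± 0.52, adjusted p = 2.4e-06).

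Passage through sphere showed when these changes were visible. In a fit of the 9 MZrlig1 libraries, 6653 of 16590 genes (40.1%) differed between 4-cell and sphere, 3922 (23.6%) higher and 2731 (16.5%) lower. Between sphere and shield 9003 (54.3%) differed, 5002 (30.2%) higher and 4001 (24.1%) lower. The directions of these steps depend on the scaling, with 4640 higher and 2025 lower in the first step and 3204 higher and 6088 lower in the second on total counts. Leaving out either of the 2 sphere libraries leaves a single one at that stage. The spread then comes from the other stages alone, so counts of calls from such fits are not taken as a measure of stability. Over the 4267 genes that were lower at shield and had at least 5 CPM at 4-cell, the median level left was 56.5% at sphere and 23.2% at shield. Over the 4861 that were higher with at least 5 CPM at shield, the median stood at 16.8% of the shield level at 4-cell and 36.0% at sphere. The oocyte RNAs cldnd (213 and 259 CPM at sphere), fbxo43 (19.7 and 21.7 CPM) and DNMT1 had lost most of their 4-cell level by sphere, while nanog and gdf3 (521 and 564 CPM) still held most of theirs. Over the 35 genes chosen in wildtype as cleared, the 2 sphere libraries held 7.32% and 6.43% of the 4-cell sum.

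Several genes of growth arrest and cell death were higher at sphere than at either end. This was so, with both steps past the test, for 6 of 18 members of the growth arrest and apoptosis list (mdm2, cdkn1a, bbc3, SESN1, PHLDA3 and foxo3b), against 542 of all 16590 genes (3.27%). It was 10 members on total counts (7.44% of all genes there), and 6 or 7 without a shield library. Both steps share the 2 sphere libraries, so they are not separate evidence. Between 4-cell and shield, 8 of 18 tested members of the growth arrest and apoptosis list were higher, 4 lower and 6 did not pass, against 40.7% higher and 32.6% lower over all genes. mdm2, a ubiquitin ligase, stood at 122, 112, 107 and 118 CPM, then at 438 and 586 CPM at sphere and at 82.5, 137 and 141 CPM at shield. Its rise to sphere passed (log2 fold change 2.15 ± 0.22, adjusted p = 1.5e-05), as did its fall after it (adjusted p = 7.3e-05). SESN1, a stress gene, went from 11.3, 11.6, 16.3 and 19.3 CPM to 119 and 176 CPM at sphere (log2 fold change 3.33 ± 0.37, adjusted p = 3.3e-05). It then stood at 7.82, 15.5 and 24.6 CPM (log2 fold change -3.12 ± 0.41, adjusted p = 0.00014). PHLDA3, an inhibitor of Akt signalling, was at 164 and 251 CPM at sphere and at 9.88, 36.04 and 30.97 CPM at shield (log2 fold change -2.93 ± 0.53, adjusted p = 0.0010 for the second step). The death gene bbc3 went from 0.863, 0.348, 1.16 and 1.38 through 55.7 and 89.4 to 5.15, 9.26 and 11.1 CPM. cdkn1a, the cyclin kinase inhibitor, had no count at 4-cell and 15.9 and 22.6 CPM at sphere, then 1.72, 4.27 and 6.60 CPM. BAX, which opens the mitochondrial membrane in cell death, did not pass between the ends. In the 2 wildtype sphere libraries mdm2 stood at 151 and 184 CPM, SESN1 at 65.7 and 78.5 CPM, PHLDA3 at 34.3 and 44.4 CPM and bbc3 at 21.3 and 33.4 CPM, each below both MZrlig1 sphere libraries. Some other lists also had higher sums in the MZrlig1 sphere libraries. Early zygotic genes summed to 2874 and 3141 CPM there, against 1840 and 1924 CPM in wildtype. Genes of mesoderm and endoderm summed to 753 and 662 against 398 and 372 CPM. FGF genes did not part in this way, at 665 and 624 against 673 and 701 CPM. A difference between the genotypes at sphere was not tested here, for genes or for lists. Other genes with their highest values at sphere, named after their values were seen, included the apelin receptor gene aplnrb (621 and 892 CPM, then 233, 206 and 188 CPM). The yolk syncytial gene mxtx2 was another (77.7 and 53.2 CPM, then 1.55, 16.1 and 17.98 CPM), as was her5, a hairy-related repressor (104 and 121 CPM, then 8.25, 6.67 and 3.51 CPM), and blf, a zinc finger gene (721 and 705 CPM, then 93.1, 247 and 157 CPM).

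**Figure D5:**
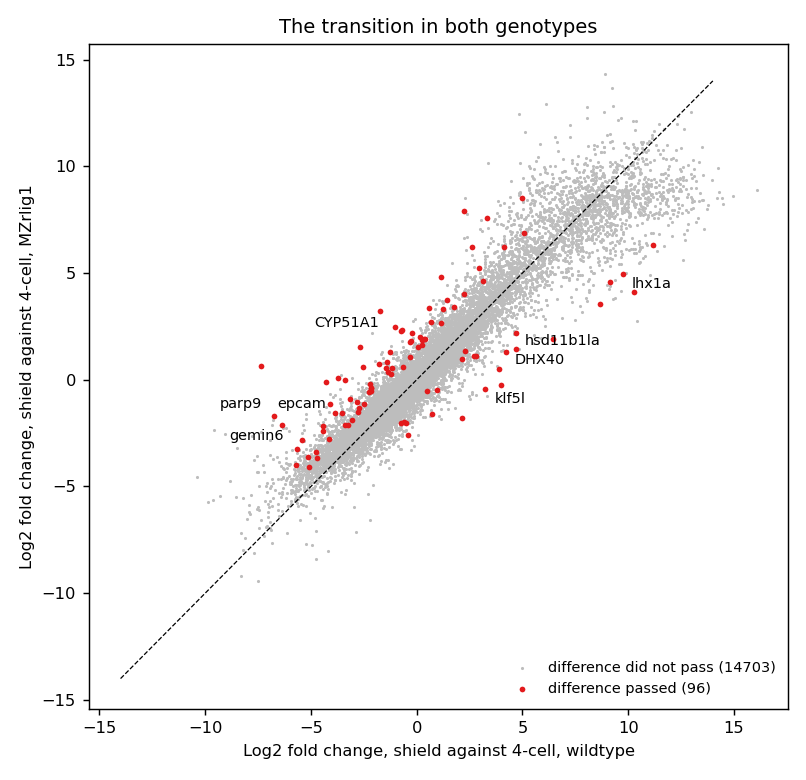
Log2 fold change from 4-cell to shield in MZrlig1 against that in wildtype for the 14799 genes tested in both. Genes that passed the test of a difference between the genotypes are in red, and some of the named ones are labelled. The dashed line marks equal change. Most genes lie along the line.

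The transition in wildtype, in 7 libraries that share none with the mutant, had the same outline. There 12660 of 15480 genes (81.8%) passed. The log2 fold changes of the 14799 genes tested in both genotypes had a Pearson correlation of 0.956 and a Spearman correlation of 0.965. These are taken across genes, which are not independent replicates. Of these 14799 genes, 10858 were called in the mutant and 12168 in wildtype. In both, 10269 were called in the same direction, 94.6% of these mutant calls and 84.4% of these wildtype calls. Another 22 were called in opposite directions. The gene sets chosen in wildtype alone behaved in the mutant as follows: 34 of 35 cleared RNAs were lower, against 32.6% of all genes, and 361 of 362 tested genes silent at 4-cell were higher, against 40.7%. The lists gave similar counts in wildtype. There 28 of 29 early zygotic genes and 19 of 19 tested mesendoderm genes were higher, against 43.4% over all genes. Lower were 21 of 26 egg transcripts and 14 of 19 germ plasm genes, against 38.4% over all genes.

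A difference between the 2 transitions was tested as an interaction over the 14 libraries. It passed for 99 of 16505 genes (0.600%), 74 (0.448%) with a more positive change in MZrlig1 and 25 (0.151%) with a more negative one, where 2265 had an unadjusted p under 0.05 and DESeq2 called 461. Among all members of the lists that were tested, 2 passed. These were lhx1a, of 22 tested in the Nodal and organizer list, and epcam, of 28 in the enveloping and yolk syncytial layer list. The count rests on single libraries: it was 269 without wildtype 4-cell library f, 47 without MZrlig1 4-cell library f, 40, 35 and 30 without wildtype 4-cell library a, b or c, and 22, 24 and 34 without wildtype shield library a, b or c. Wildtype shield library c also held the later stage markers at a sum of 574 CPM. lhx1a, a homeobox gene of the organizer, had 1.73, 1.18, 2.87 and 3.36 CPM at 4-cell in MZrlig1 against 0, 0.122, 0 and 0.324 CPM in wildtype. It reached 40.02, 80.2 and 81.04 against 101, 102 and 105 CPM at shield (log2 difference -4.82 ± 0.71, adjusted p = 0.0061, the fold change of MZrlig1 minus that of wildtype). The mutant thus held lhx1a RNA in all 4 libraries of the 4-cell stage, at levels that did not overlap those of wildtype. epcam started alike, at 2827, 2655, 2014 and 1402 against 2808, 2473, 2622 and 1717 CPM, and stayed higher at shield in MZrlig1, at 588, 781 and 743 against 181, 181 and 259 CPM (log2 difference 1.90 ± 0.34, adjusted p = 0.018). This call was lost without wildtype 4-cell library c, without wildtype shield library a or b, and without MZrlig1 4-cell library d and shield library c together.

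Of the 16 genes named by rule, the largest called differences among those with a gene symbol and at least 10 CPM in a group, some differed at shield and others at 4-cell. Clone and locus names were outside the rule, and 7 of them had a larger positive and 3 a larger negative difference than the smallest named here. parp9, of the poly(ADP-ribose) polymerase family, fell in both genotypes, from 4-cell means of 33.9 CPM in MZrlig1 and 17.1 CPM in wildtype. At shield it was higher in MZrlig1, at 6.79, 9.43 and 13.2 against 0.0817, 0.0638 and 0.308 CPM (log2 difference 5.02 ± 0.69, adjusted p = 0.0036). gemin6, of the complex that assembles spliceosomal particles, was at 5.67, 8.28 and 6.74 against 1.23, 1.28 and 1.31 CPM (log2 difference 2.54 ± 0.31, adjusted p = 0.0020). CYP51A1, an enzyme of sterol synthesis, rose in the mutant from 9.004, 7.80, 6.11 and 6.54 to 34.9, 43.3 and 23.5 CPM. Wildtype had 12.01, 9.07, 10.5 and 14.5 and then 6.29, 3.83 and 9.94 CPM (log2 difference 3.02 ± 0.45, adjusted p = 0.0062). ZNF653, mul3, tp53i13, the carboxypeptidase M gene and pimr138, a kinase of a large family of copies whose reads may be shared, were the other positive ones, with log2 differences from 3.06 ± 0.51 to 4.21 ± 0.63. At shield the means of tp53i13 were close, at 40.5 CPM in MZrlig1 and 35.5 CPM in wildtype. Its 4-cell means were 0.109 CPM, from 7 counts, and 1.17 CPM. pimr138 had 5 counts at 4-cell in MZrlig1. For mul3 the 4-cell means were 3.92 CPM in MZrlig1 and 18.3 CPM in wildtype. On the negative side, klf5l, a Krüppel-like factor, was already at 25.7, 26.1, 26.9 and 27.5 CPM at 4-cell in MZrlig1 against 1.13, 0.365, 1.08 and 2.33 CPM in wildtype (log2 difference -3.72 ± 0.49, adjusted p = 0.0030). DHX40, a helicase, stood at 24.5, 20.6, 20.1 and 21.8 against 4.34, 3.53, 2.73 and 6.9999 CPM at 4-cell and reached 56.8, 43.6 and 50.8 against 82.2, 83.2 and 76.5 CPM (log2 difference -2.95 ± 0.35, adjusted p = 0.0020). hsd11b1la, GTF2IRD1, CPNE5 (ENSDARG00000070919), RAB6B (ENSDARG00000034522) and NRIP1 had log2 differences from -1.72 ± 0.32 to -3.29 ± 0.53. With epcam, 17 genes were named for a difference, of which 9 passed in all of 20 alternatives and 8 did not. GTF2IRD1 passed in 5, CPNE5 in 8, pimr138 in 11, NRIP1 in 12, epcam in 16, RAB6B and the carboxypeptidase M gene in 17 each and mul3 in 18, with most losses when 1 library was left out. The labels do not give the parents of either genotype, so other differences between the stocks cannot be told apart from the mutation.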

How the data were processed

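Gene counts and FPKM values were deposited by the authors for poly(A) libraries of pooled embryos. The submitters' processing notes name STAR 2.7.10b, Salmon 0.14.1, DESeq2 1.42.1 and the build GRCz11; their roles, the annotation, the counting rule and the strand setting are not given in the sources used here. The deposited counts are whole numbers per gene, not normalized, for 32520 of 37241 listed genes. The deposited FPKM values, scaled by the authors for length and depth, were used only for levels between genes.

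Counts of the 3 shield and 4 4-cell libraries of MZrlig1 were tested with edgeR 4.0.16 (limma 3.58.1, R 4.3.3): TMM scaling, filterByExpr, a robust quasi-likelihood fit and Benjamini-Hochberg adjustment over all genes tested, with calls at an adjusted p under 0.05. The same test was run on 7 wildtype libraries, on the 14 libraries with an interaction term and on the 9 MZrlig1 libraries with sphere. A log2 fold change is given ± an approximate standard error, which is its size divided by the square root of the test's F statistic. Alternatives were DESeq2 1.42.0 and its size factors, total counts, no filter, glmTreat, the replicate letter as a block, other sets of libraries in the fit and leaving out each library (for the steps through sphere, each sphere and shield library); the fit without 2 libraries was added after the data were seen. Scripts were tested on simulated data. The replicates are called biological in the labels' design text, and p-values measure the spread between these pools.

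Members and gene lists were chosen with earlier results of these data known. Of 487 list names, 421 matched a gene name in the tables; members are counted as names matched, without regard to case, and a duplicated name is given with its identifier. The genes named are the targeted gene, the 10 largest rises and falls among genes of at least 50 CPM without overlap, the 5 most abundant per stage, list members (any from lists of up to 20 matched members, otherwise the 4 largest rises and falls called and those in a shorter list), cell type markers, and the 8 largest interaction calls in each direction of at least 10 CPM, with clone and locus names left out of the rules by size of change. Other named genes, among them some subunits of CCR4-NOT, CCNE1, tbxta and genes highest at sphere, were chosen after their values were seen. Some genes are counted in their lists but not reported here. A gene with no 4-cell count has its fold set against 3 counts over the group; ratios of few counts carry 95% intervals for counting error only.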

Additional observations from a re-analysis of the deposited data

Results flagged for a closer look

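In the 4 libraries of MZrlig1 at 4-cell, 43 of the 170 named genes had 1 library whose gap to its nearest neighbour was a larger part of the range than Dixon's 95% critical value allows. Chance gives such a gap in about 1 of 20 groups, and genes that are near 0 in the other libraries give it from a few counts.

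In 35 of the 43 the library was d and its value was the highest. The largest of these values in library d were SMAD2 (311 CPM), krt4 (32.0 CPM), krt5 (18.3 CPM), CCND1 (11.7 CPM), krt92 (8.43 CPM), tbxta (6.23 CPM), fgfr4 (6.17 CPM), SOX3 (6.17 CPM), CCNE2 (4.64 CPM), sp5l (3.97 CPM), sox19a (3.85 CPM), chrd (3.79 CPM), cldne (2.99 CPM), wnt11f2 (2.08 CPM), DUSP6 (2.02 CPM), snai1b (1.96 CPM), eve1 (1.77 CPM) and HNF4A (1.65 CPM). The others were SOX2 (1.53 CPM), mxtx1 (1.41 CPM), cdx4 (1.41 CPM), sox32 (0.917 CPM), szl (0.856 CPM), foxd5 (0.794 CPM), aplnra (0.733 CPM), SP5 (0.733 CPM), SOX17 (0.306 CPM), dharma (0.244 CPM), BCAR3 (0.244 CPM), vent (0.183 CPM), noto (0.122 CPM), ca9 (0.122 CPM), SERPINH1 (0.122 CPM), rltgr (0.0611 CPM) and MAPKAPK3 (0.0611 CPM). Of these 35, SMAD2 fell by shield, dharma was too low to be tested and the other 33 rose, and the summed zygotic RNA of library d is given with the libraries that stood apart. The source of these values was not tested.

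In the other 8 genes the library was another. DNMT1 stood at 3064 CPM in library c, FAM98A stood at 42.2 CPM in library b, RLIG1 stood at 0.139 CPM in library c, fabp10a stood at 0.139 CPM in library c, h1m stood at 7584 CPM in library b, hhex stood at 0.0697 CPM in library c, krt17 stood at 0.836 CPM in library c and mbpa stood at 0.0617 CPM in library b. For FAM98A this library was the lowest of the 4, and for the others the highest. In wildtype 4-cell libraries, ZNF653 stood apart at 15.3 CPM in library f and the carboxypeptidase M gene at 3.17 CPM in library c.

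The change from 4-cell to shield differed between the genotypes, by the interaction test in edgeR, for 17 named genes as reported, of which 8 did not pass under at least 1 of 20 alternatives. The log2 fold change of MZrlig1 minus that of wildtype was positive for parp9 (5.02), ZNF653 (4.21), pimr138 (4.20), tp53i13 (3.52), the carboxypeptidase M gene (3.43), mul3 (3.06), CYP51A1 (3.02), gemin6 (2.54) and epcam (1.90). It was negative for lhx1a (-4.82), klf5l (-3.72), hsd11b1la (-3.29), DHX40 (-2.95), GTF2IRD1 (-2.57), CPNE5 (-2.39), RAB6B (-2.26) and NRIP1 (-1.72).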

How the results depend on the processing

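The number of calls for the transition in MZrlig1 moved little with DESeq2 or without 1 library. edgeR's 11208 calls became 11168 with DESeq2's size factors, 11300 in DESeq2 and between 10619 and 10969 when 1 library was left out. Fits that tested more genes gave more calls. These were 13370 of 23973 genes without a filter, 12532 of 16505 with both genotypes in the fit and 12218 of 16590 with sphere in it. Over the gene lists, no count of higher or lower members moved by more than 3 without 4-cell library d, shield library a, shield library c or d and c together, and by more than 5 with total counts. The difference between the genotypes was less stable, with 99 calls as reported, 461 in DESeq2, 61 on total counts and 22 to 269 without 1 library. The steps through sphere rest on 2 libraries there: without 1 sphere or shield library the count from 4-cell to sphere ranged from 4035 to 6995, and from sphere to shield from 5745 to 8673. The low end of each range is from a fit with a single sphere library. The spread there comes from the other stages alone, so these low ends do not measure stability. Without 1 shield library the counts were 6517 to 6995 from 4-cell to sphere and 7652 to 8673 from sphere to shield. Signs turned for genes that did not pass. On total counts these were BAX (-0.265), DDX4 (-0.377), MT-CO1 (-0.0678), SESN1 (-0.154) and mdm2 (-0.219). DDX4 also turned without a filter (-0.0305), with both genotypes (-0.0112) or sphere (-0.0058) in the fit, and without d and c (-0.0877), as did SESN1 without d and c (-0.162). Without 1 library, BAX ranged from -0.0259 to 0.270, DDX4 from -0.0688 to 0.124 and SESN1 from -0.214 to 0.551. The cause was not tested.

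With the replicate letter as a block, 11039 genes passed in MZrlig1, 109 for the difference between the genotypes and 12963 in wildtype. Only letters b and c occur at both stages in MZrlig1, and the deviations of same-letter libraries correlated at 0.285 and 0.0778, so the letters were not taken as pairs; among the genes named, for the transition the block ended 2 calls (buc and RTCB) and added 5, and for the difference between the genotypes it ended 2.

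Totals of 14277607 to 17247414 counts per library limit genes of a few counts. A gene that did not pass is not shown to be unchanged.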

Other observations

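Protein genes of the cytosolic ribosome were mostly higher at shield than at 4-cell in MZrlig1. Of 88 tested, 68 were higher and 5 lower, against 40.7% higher and 32.6% lower over all genes. Their median log2 fold change was 1.26. On total counts 59 were higher and 8 lower. Together they took 1.16% to 2.03% of the counts in 4-cell libraries and 2.33% to 3.16% in shield libraries, ranges that do not overlap. In wildtype the shares were 1.16% to 1.97% and 2.27% to 2.53%.

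Of the 12 protein genes of the mitochondrial genome, 3 were lower and 9 did not pass, against 32.6% lower over all genes, with 7 lower on total counts. The 2 genotypes differed in their share of counts, which lay between 2.85% and 4.05% at 4-cell in MZrlig1 and between 1.38% and 1.69% in wildtype.

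The 4-cell libraries of MZrlig1 fell into b and c against d and f in several egg RNAs. AURKB, a mitotic kinase, stood at 553, 516, 129 and 104 CPM in b, c, d and f, and MT-CO1 at 7850, 8259, 15105 and 13674 CPM. The sum over the 35 genes cleared in wildtype was 150%, 113%, 75.2% and 62.5% of the mean of these MZrlig1 4-cell libraries. The labels give no difference between these libraries.

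Among the 22 genes called in opposite directions in the 2 genotypes, PBX3, a homeobox gene, rose in MZrlig1 (log2 fold change 1.53, adjusted p = 0.0031 in edgeR) and fell in wildtype (-2.66, adjusted p = 0.00010), and the difference passed (adjusted p = 0.0030). The cytokine receptor gene il13ra1 fell in MZrlig1 (-1.77, adjusted p = 0.0040) and rose in wildtype (2.15, adjusted p = 0.0023), with an adjusted p of 0.014 for the difference. GID8, of a ubiquitin ligase, rose in MZrlig1 (0.60, adjusted p = 0.022) and fell in wildtype (-0.64, adjusted p = 0.00031), with 0.034 for the difference. These 3 genes were chosen after their values were seen.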
